A study of Rattus norvegicus with 6 samples.

Results

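Epithelial-mesenchymal transition (EMT) is the program by which epithelial cells lose polarity and adhesion and take on mesenchymal features. A set of 10 genes of it was followed in rat airway basal cells grown in 2 culture media: the mesenchymal targets Vim, Fn1 and Thbs1, and the EMT transcription factors Zeb1, Zeb2, Snai1, Snai2, Twist1, Twist2 and Prrx1. They were chosen by gene symbol. The platform annotation named 1 probe set for each of 9 of the 10 listed genes, out of 15037 genes in all. Zeb1 had no named probe set and was not analysed here.

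The cells, which the labels call basal cells, came from scrapings of the tracheal epithelium. The donors were Sprague Dawley rats (male, wild type, 12 weeks old). There were 3 lines, each made from 3 rats, so a line is a pool of animals. Each line was divided at isolation between EpiX medium and BEGM, and RNA was taken after 8 days and hybridised to Affymetrix arrays. This gave 3 EpiX arrays and 3 BEGM arrays, each numbered 1 to 3 as in the labels, which do not say which line a number stands for. All cells were grown in a dish, and no unplated scraping was analysed here.

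In development and wounding, the factors of the Snail (Snai1, Snai2) and Zeb (Zeb1, Zeb2) families bind E-boxes in DNA through zinc fingers and repress epithelial genes such as Cdh1, which encodes E-cadherin. The Twist factors are basic helix-loop-helix proteins of the mesoderm and its derivatives, and Prrx1 is a homeobox factor of limb and craniofacial mesenchyme that can also induce EMT. Transforming growth factor beta (TGF-beta) is a main inducer of the program. Vim encodes the intermediate filament vimentin, Fn1 the matrix glycoprotein fibronectin, and Thbs1 thrombospondin 1, a matrix protein that can activate latent TGF-beta. Snai2 is also known from basal cells of stratified and airway epithelia, where it is present without EMT.

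The 3 targets fell in EpiX and 0 of the 6 measured transcription factors passed the test (limma on medium alone). With 3.15% of all genes called lower and 2.63% higher, 0 of 6 does not set the factors apart. An unadjusted p under 0.05 was found for 3 of the 6, against 22.4% of all genes. Zeb2 passed where the array number was a fixed block (limma, adjusted p = 0.0407). The largest differences among the factors were those of Prrx1 and Zeb2, both lower in EpiX on average, while Snai2 kept a high signal in both media. Of the factors, Prrx1 and Zeb2 came nearest to the targets by the size of the differences over the arrays, a measure that favours genes with a large range. Zeb2 and Prrx1 were both under the background median on BEGM array 1, where the targets were high. The question asked of these data was which EMT regulator follows Vim, Fn1 and Thbs1.

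The promoter letters of the called targets with a RefSeq entry (Vim and Thbs1) and of the 3 factors with the largest differences (Prrx1, Zeb2 and Snai1) are shown, because these genes were all lower on average in EpiX. Each window runs 5′ to 3′ from 250 bases before to 50 bases after the transcript start, in the RefSeq build GRCr8. Of the 10 listed genes, 8 had an entry, and Fn1 and Snai2 had none. Capitals mark any match, on either strand, to CAGGTG (the E-box core bound by Snail and Zeb factors), TGAGTCA (the AP-1 site) or GGAATG (the TEAD site). Lower case throughout means that none of the 3 motifs is in the window.
Vim, chr17:81577011-81577310, plus strand: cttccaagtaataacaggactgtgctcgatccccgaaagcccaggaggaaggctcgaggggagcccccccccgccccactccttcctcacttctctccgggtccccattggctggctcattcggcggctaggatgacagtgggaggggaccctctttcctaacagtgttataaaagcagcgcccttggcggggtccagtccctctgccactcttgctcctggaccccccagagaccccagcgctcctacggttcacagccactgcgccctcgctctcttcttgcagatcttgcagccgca
Thbs1, chr3:125510000-125510299, plus strand: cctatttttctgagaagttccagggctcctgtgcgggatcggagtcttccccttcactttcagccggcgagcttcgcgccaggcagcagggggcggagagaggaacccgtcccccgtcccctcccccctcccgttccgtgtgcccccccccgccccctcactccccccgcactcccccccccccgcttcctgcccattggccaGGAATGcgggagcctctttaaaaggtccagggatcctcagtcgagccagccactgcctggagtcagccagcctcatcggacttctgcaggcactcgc
Zeb2, chr3:49754274-49754573, minus strand: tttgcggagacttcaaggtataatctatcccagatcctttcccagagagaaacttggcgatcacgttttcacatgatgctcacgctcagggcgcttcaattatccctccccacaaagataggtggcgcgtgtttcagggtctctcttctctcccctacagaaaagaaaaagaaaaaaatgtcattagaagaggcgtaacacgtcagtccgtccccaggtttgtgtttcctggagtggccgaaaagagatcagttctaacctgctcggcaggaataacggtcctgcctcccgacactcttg
Prrx1, chr13:78204024-78204323, minus strand: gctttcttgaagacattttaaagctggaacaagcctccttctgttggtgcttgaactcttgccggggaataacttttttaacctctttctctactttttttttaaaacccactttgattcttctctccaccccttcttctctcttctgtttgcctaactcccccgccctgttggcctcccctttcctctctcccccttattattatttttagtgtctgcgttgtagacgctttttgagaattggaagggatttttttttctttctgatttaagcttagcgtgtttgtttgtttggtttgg
Snai1, chr3:176667226-176667525, plus strand: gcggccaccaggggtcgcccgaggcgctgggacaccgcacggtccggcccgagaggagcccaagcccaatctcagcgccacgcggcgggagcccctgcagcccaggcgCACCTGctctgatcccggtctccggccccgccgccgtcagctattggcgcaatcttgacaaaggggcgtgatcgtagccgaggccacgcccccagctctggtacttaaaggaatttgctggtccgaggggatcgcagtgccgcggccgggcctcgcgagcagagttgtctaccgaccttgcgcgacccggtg

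CAGGTG was found once among these 5 windows, in Snai1, starting at -142 from the transcript start, and in 18.8% of all 33469 promoters of the table. GGAATG was found once, in Thbs1, starting at -47, and in 14.2% of all promoters. TGAGTCA was in none of the 5, and in 4.6% of all promoters. The windows of Zeb2 and Prrx1 had a GC content of 49.0% and 41.0%, those of Vim, Thbs1 and Snai1 62.0%, 67.0% and 70.0%, and the median over all promoters was 51.7%. These matches describe the letters in the windows and say nothing of binding.

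Facts of the whole data set bear on all values that follow. Levels are the deposited signals, taken as log2, and ran from 2.62 to 18.66. The median over the tested genes was 6.90 to 6.93 on the EpiX arrays and 6.98 to 7.13 on the BEGM arrays. BEGM array 1 stood apart from its group. On the first principal component, whose sign is arbitrary, the EpiX arrays scored -53.9 to -34.2, and BEGM arrays 1, 2 and 3 scored 7.24, 54.8 and 73.2. The arrays carry 23 background probe sets, whose median was 5.90 to 6.13 on the EpiX arrays and 5.77 to 6.11 on the BEGM arrays. No detection calls were used, so this median is the only guide to which levels are dim. Of the basal cell markers, Krt14 lay at 16.75 to 17.13 in EpiX and at 16.38 to 16.85 in BEGM, and Tp63 at 14.62 to 14.80 in EpiX and at 12.23 to 12.93 in BEGM. Krt5 had no named probe set. In bulk RNA, fewer cells of a type and less RNA per cell cannot be told apart.

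Vim was at 6.68, 7.96 and 11.68 on EpiX arrays 1, 2 and 3, against 14.08, 15.83 and 17.18 on BEGM arrays 1, 2 and 3. The media did not overlap, and EpiX array 3 was the highest of its group by a wide margin. Vim fell by 6.92 ± 1.33 in EpiX (log2, SE, n = 3 per medium), a 121-fold difference (limma, adjusted p = 0.0321), with a mean of 8.77 ± 2.6 in EpiX and 15.70 ± 1.56 in BEGM (SD).

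Thbs1 was at 8.38, 9.02 and 12.61 on the EpiX arrays, against 15.64, 17.18 and 17.52 on the BEGM arrays. As for Vim, EpiX array 3 was the highest in EpiX, BEGM array 1 the lowest in BEGM, and the media did not overlap. Thbs1 fell by 6.77 ± 1.10 (SE), a 109-fold difference (adjusted p = 0.0199).

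Fn1 was at 14.61, 15.59 and 16.54 on the EpiX arrays, against 17.45, 18.14 and 18.21 on the BEGM arrays. Its signal was far above background in both media and the difference was smaller than that of Vim or Thbs1. Fn1 fell by 2.35 ± 0.47 (SE), a 5.11-fold difference (adjusted p = 0.0379). The highest Fn1 signals lay close to the highest value of the whole table, and whether the arrays still resolve differences there was not tested.

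These calls rest on few arrays. Each of the 3 targets lost its call when any of 4 arrays was left out, with the adjusted p of Vim at 0.0993 without EpiX array 1, 0.144 without EpiX array 2, 0.133 without BEGM array 2 and 0.0791 without BEGM array 3. The corresponding values were 0.0691, 0.100, 0.0952 and 0.0513 for Thbs1 and 0.0771, 0.148, 0.149 and 0.0950 for Fn1. The size of the difference moved too: for Vim it was -8.38 without EpiX array 3, -5.88 without EpiX array 1, -7.73 without BEGM array 1 and -6.18 without BEGM array 3. For Thbs1 it was -8.08 without EpiX array 3 and -5.96 without EpiX array 1.

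**Figure D1:**
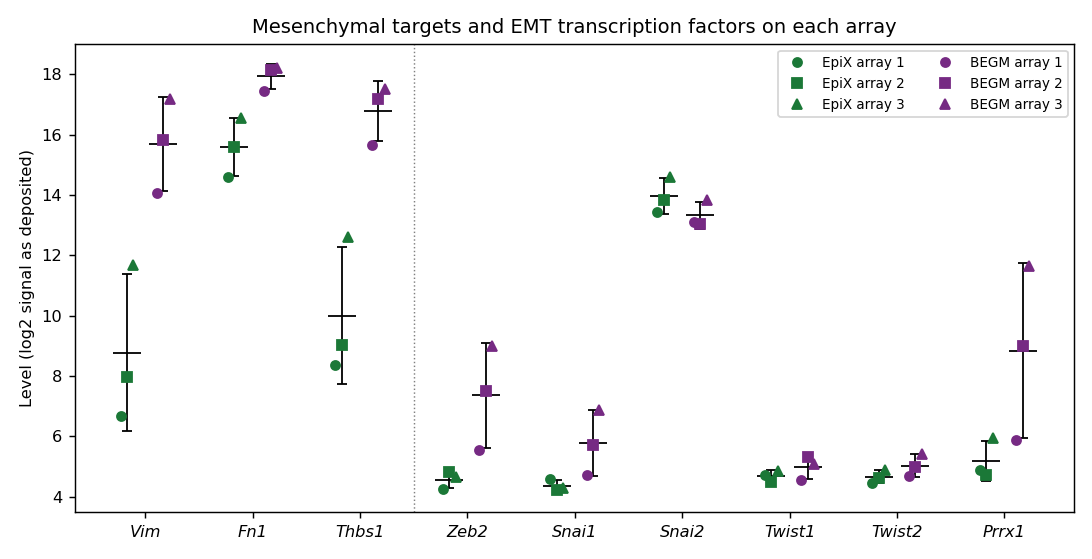
Level of each measured gene (log2 signal as deposited, vertical axis) on the 3 EpiX arrays (green, left) and the 3 BEGM arrays (purple, right), with marker shapes for array numbers and black bars for the mean and SD of each medium. The EpiX arrays lie below all BEGM arrays for Vim, Fn1, Thbs1, Zeb2 and Snai1, and BEGM array 1 is at 5.56 for Zeb2 and 5.88 for Prrx1, far below the other BEGM arrays.

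Of the 9 measured genes, 3 were called lower and 0 higher, where 3.15% of all genes tested were called lower (474 genes) and 2.63% higher (395 genes). With each array centred on its median, these whole-table counts became 409 lower and 560 higher. All EpiX arrays lay below all BEGM arrays for 5 of the 9, the 3 targets plus Zeb2 and Snai1, against 14.5% of all genes. The median difference was -2.35 over the 9 measured genes and -0.89 over the 6 factors, against 0.00 over all genes. By unadjusted p under 0.05, 6 of the 9 passed, against 22.4% of all genes. These shares of all genes are also the background for the counts in the gene lists that follow.

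Zeb2, a zinc finger and homeodomain repressor, was at 4.26, 4.81 and 4.65 on the EpiX arrays, against 5.56, 7.52 and 9.01 on the BEGM arrays. The media did not overlap, but the signal lay above the background median only on BEGM arrays 2 and 3. The difference of -2.79 ± 0.78 (SE) did not pass (95% interval -4.63 to -0.95, adjusted p = 0.0892). With the array number in the limma model as a fixed block it passed (adjusted p = 0.0407), and as a random block it did not (adjusted p = 0.061). Whether the numbers pair the samples is not settled. Without BEGM array 1 it was -3.69 and was called (adjusted p = 0.0029), and without BEGM array 3 it was -1.97 (adjusted p = 0.123).

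Prrx1 was at 4.89, 4.71 and 5.94 on the EpiX arrays, against 5.88, 8.99 and 11.66 on the BEGM arrays. The media overlapped, since BEGM array 1 was below EpiX array 3, and the signal was above the background median on BEGM arrays 2 and 3 only. Prrx1 had the largest difference of the factors and the widest spread, -3.66 ± 1.30 (SE; 95% interval -6.74 to -0.58, adjusted p = 0.158). Without BEGM array 1 the difference was -5.14 and was called (adjusted p = 0.00717), and without BEGM array 3 it was -2.25 (adjusted p = 0.248).

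Snai1, a zinc finger repressor of Cdh1, was at 4.59, 4.22 and 4.29 on the EpiX arrays, against 4.72, 5.72 and 6.89 on the BEGM arrays. The media did not overlap, yet BEGM array 1 exceeded the highest EpiX array by little and only BEGM array 3 was above the background median. The difference of -1.41 ± 0.50 (SE) did not pass (95% interval -2.58 to -0.24, adjusted p = 0.154). It was -1.94 and called without BEGM array 1 (adjusted p = 0.0130), and -0.85 without BEGM array 3 (adjusted p = 0.218).

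Snai2 was at 13.45, 13.84 and 14.61 on the EpiX arrays, against 13.10, 13.03 and 13.83 on the BEGM arrays. It was bright on every array, the media overlapped, and its mean was the higher one in EpiX, opposite to the targets. The difference of 0.65 ± 0.35 (SE) did not pass (adjusted p = 0.330), and its 95% interval of -0.17 to 1.46 leaves out any fall as large as that of Fn1. Snai2 was called in 0 of the 17 alternative fits, and its difference was 0.32 without EpiX array 3.

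Twist1 was at 4.73, 4.49 and 4.86 on the EpiX arrays, against 4.57, 5.33 and 5.08 on the BEGM arrays. Its close relative Twist2 was at 4.46, 4.63 and 4.90 on the EpiX arrays, against 4.68, 4.98 and 5.43 on the BEGM arrays. Both were below the background median on all 6 arrays, and the media overlapped. The differences were -0.30 ± 0.22 (SE; 95% interval -0.83 to 0.23, adjusted p = 0.495) for Twist1 and -0.37 ± 0.23 (-0.91 to 0.17, adjusted p = 0.400) for Twist2. At such signals a difference in transcript level may not be detectable.

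**Figure D2:**
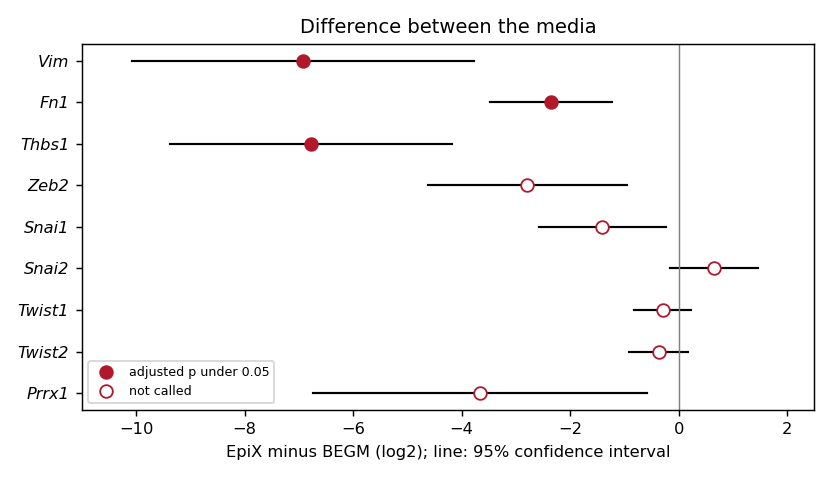
Difference of each gene between the media (EpiX minus BEGM, log2, horizontal axis), with lines for the 95% confidence interval of the limma fit to 3 arrays per medium. Filled points mark the 3 called genes, Vim, Fn1 and Thbs1, and the intervals of Snai2, Twist1 and Twist2 include 0.

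Vim, Fn1 and Thbs1 ranked the 6 arrays in one and the same order, EpiX array 1, EpiX array 2, EpiX array 3, BEGM array 1, BEGM array 2 and BEGM array 3, from low to high. An order identical to that of Vim in all 15 pairs of arrays was found for 225 genes, or 1.5% of those tested. Zeb2 ordered 14 of the 15 pairs as the targets did, all 9 between the media and 5 of the 6 within a medium. Snai1 ordered 13 (9 and 4), Prrx1 13 (8 and 5), Twist2 14 (8 and 6), Twist1 11 (7 and 4) and Snai2 6 (1 and 5). At least 14 pairs were ordered as by Vim for 5.23% of all genes and at least 13 for 10.32%, which is the background for these counts. For Zeb2, Snai1, Twist1, Twist2 and Prrx1, the pairs within EpiX compare signals under the background median. The same holds between the media for the pairs of EpiX arrays with BEGM array 1 for Zeb2 and Prrx1. It holds for every pair without BEGM array 3 for Snai1, and for all 15 pairs for Twist1 and Twist2. Because the 6 arrays form 2 groups of 3, no correlation across them is given.

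Likeness was also measured as the root mean square difference, over the 6 arrays, between a gene's log2 profile and the mean profile of the 3 targets, each centred on its own mean. Prrx1 was nearest at 1.60, followed by Zeb2 at 1.71, Snai1 at 2.30, Twist2 at 2.70, Twist1 at 2.77 and Snai2 at 3.13. Among all genes, 0.7% were nearer than Prrx1, 1.0% nearer than Zeb2, 3.4% nearer than Snai1 and 80.8% nearer than Snai2. This measure favours genes with a large range: Fn1, itself 1 of the 3 targets in the mean, stood at 1.65. With each profile scaled to its own range, Twist2 came first (0.268), then Zeb2 (0.273), Prrx1 (0.301), Twist1 (0.323), Snai1 (0.339) and Snai2 (0.590), but this order means little for Twist2 and Twist1, which were under the background median on all 6 arrays and spanned 0.97 and 0.84 log2 units. On that scale the targets themselves stood at 0.029 (Vim), 0.033 (Thbs1) and 0.069 (Fn1), all far nearer than any factor. Of all genes, 11.1% were nearer to the targets than Zeb2 was and 14.7% nearer than Prrx1. Zeb2 was second by both measures, and Snai2 last by both.

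Zeb2, Snai1 and Prrx1 stood well below the targets within their own ranges on BEGM array 1 and EpiX array 3. On BEGM array 1, Vim stood at 70.4% of its own range from lowest to highest array, Fn1 at 78.9% and Thbs1 at 79.4%. On the same array Zeb2 stood at 27.3%, Twist2 at 22.7%, Snai1 at 18.9%, Prrx1 at 16.8%, Twist1 at 9.8% and Snai2 at 4.7%. On EpiX array 3 the targets stood at 46.4% to 53.5%, against 17.8% for Prrx1, 8.2% for Zeb2 and 2.7% for Snai1. Twist1 and Twist2 were at 44.1% and 44.9% there, within a range of under 1 log2 unit each. Snai2 had its highest array there and its lowest on BEGM array 2, where the targets stood at 87.2% to 97.9%. Zeb2 and Prrx1 were above the background median only where Vim was at 15.83 or above, on BEGM arrays 2 and 3. Snai1 was above it on BEGM array 3 only. Signals under the background median narrow the lower end of these ranges, and how much was not tested.

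**Figure D3:**
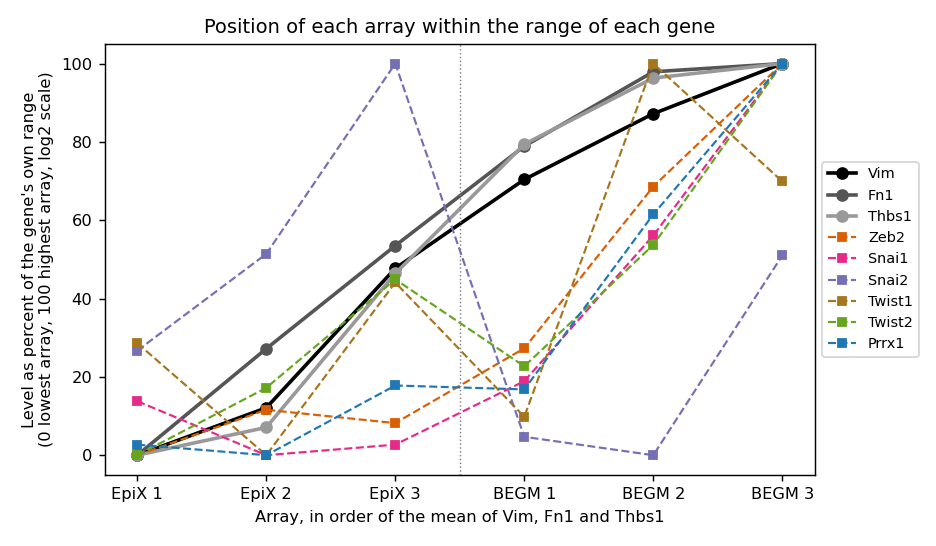
Level of each gene as a percent of its own range (vertical axis, 0 for its lowest and 100 for its highest array, log2 scale) on the 6 arrays, placed from left to right by the mean of Vim, Fn1 and Thbs1; solid lines are the targets, dashed lines the factors, and lines only guide the eye. On BEGM array 1 the targets are at 70.4% or more and Zeb2, Snai1 and Prrx1 at 27.3% or less, and Snai2 is highest on EpiX array 3.

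The 8 genes of the table nearest to the mean profile of the targets, by the unscaled measure, were Penk (0.63), Sorbs2 (0.72), Ncs1 (0.74), Tnc (0.77), Loxl3 (0.80), Fkbp10 (0.81), Lgals1 (0.82) and Mgp (0.82). Penk encodes the opioid precursor proenkephalin, Tnc the matrix protein tenascin C, Loxl3 an enzyme of collagen cross-linking, Lgals1 galectin 1 and Mgp matrix Gla protein. Penk, the nearest, was at 5.51, 7.12 and 9.77 on the EpiX arrays, against 10.30, 12.85 and 14.18 on the BEGM arrays, which differed by -4.98 and missed the threshold (adjusted p = 0.0743). Mgp was at 8.63, 9.54 and 10.79 on the EpiX arrays, against 12.68, 15.54 and 16.75 on the BEGM arrays, and fell by 5.34 (adjusted p = 0.0331). Of the 8, 7 ordered all 15 pairs of arrays as Vim did and Sorbs2 ordered 14. They were picked for this likeness, which is therefore no test.

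Markers of other cells that a scraping can hold were set beside these results. The mean level over 13 measured fibroblast genes was 5.71, 5.63 and 6.09 on the EpiX arrays, against 6.43, 7.04 and 8.87 on the BEGM arrays. It was highest on BEGM array 3, as were Vim, Fn1, Thbs1, Zeb2, Snai1, Twist2 and Prrx1. Of these 13 genes 0 were called by limma, with 5 at an unadjusted p under 0.05, against 22.4% of all genes. All EpiX arrays lay below all BEGM arrays for 6, against 14.5% of all genes. Without BEGM array 1, 6 were called lower, and without BEGM array 3, 2 were. Col1a1, a collagen I chain made by fibroblasts and other mesenchymal cells, was at 5.82, 5.14 and 5.56 on the EpiX arrays, against 7.44, 8.32 and 12.34 on the BEGM arrays (difference -3.86, adjusted p = 0.109). Its signal was under the background median on every EpiX array, so the size of this difference is not resolved at the low end. Col1a2 differed by -3.71 (adjusted p = 0.072), and the median difference over the 13 genes was -1.39. Pi16 (0.05), Mfap5 (-0.20) and Tcf21 (-0.21) of the same list, named after their values were seen, had differences near 0. Mfap5 and Tcf21 were under the background median on every array and Pi16 lay close to it, so a difference there may not be detectable. The part of fibroblasts in the levels of Vim, Prrx1 and Zeb2 was not tested.

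The smooth muscle and cartilage markers averaged 5.37 to 5.51 in EpiX and 6.19 to 6.61 in BEGM, and 3 of 12 fell (1 without EpiX array 1 or 2). These were the contractile genes Cnn1 (-7.0), Acta2 (-2.91) and Lmod1 (-0.93), of which Cnn1 and Lmod1 were under the background median on all 3 EpiX arrays. The leukocyte markers averaged 5.27 to 5.34 in EpiX and 5.22 to 5.40 in BEGM, with 1 of 12 lower, the invariant chain Cd74 (-1.31). Its signal was above the background median on BEGM array 2 only, and its call ended without EpiX array 1 or 2 or BEGM array 2 or 3. Without BEGM array 1, 1 leukocyte marker was higher. The leukocyte averages hide Cd14 (10.95 to 12.0) and Cd68 (8.65 to 11.36), named after their values were seen, which were well above the background median on every array. The endothelial markers averaged 4.46 to 4.65 in EpiX and 4.83 to 4.99 in BEGM, with 0 of 9 called by limma (1 without BEGM array 1). An unadjusted p under 0.05 was found for 2 of them, against 22.4% of all genes. The largest endothelial differences were -1.51 for Esam (adjusted p = 0.0685) and -0.90 for Tek (adjusted p = 0.209).

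Of 22 other measured transcription factors that promote EMT, 3 fell (Sox4, Tead2 and Osr1), 0 rose and 19 did not pass, with a median difference of -0.65. Sox4, a factor linked to TGF-beta responses, was at 8.37, 8.34 and 8.72 on the EpiX arrays, against 10.21, 10.72 and 10.23 on the BEGM arrays. BEGM array 1 was level with the others for Sox4, unlike for Zeb2 and Prrx1, and Sox4 fell by 1.91 ± 0.20 (SE; adjusted p = 0.0058). Tead2, a DNA-binding partner of YAP and TAZ, fell by 1.85 ± 0.27 (adjusted p = 0.0139), with 7.49, 8.09 and 8.05 in EpiX and 9.25, 10.04 and 9.89 in BEGM. Osr1, a zinc finger factor of the intermediate mesoderm, fell by 2.10 ± 0.46 (adjusted p = 0.0472). Hmga2, an architectural chromatin protein named here after its values were seen, did not pass (-3.12 ± 0.89, adjusted p = 0.0945) but ordered the arrays as the targets did, at 7.21, 8.02 and 9.26 in EpiX and 9.66, 11.08 and 13.11 in BEGM. The count of falls was 8 without BEGM array 1, 1 without EpiX array 1, EpiX array 2 or BEGM array 2, and 2 without BEGM array 3.

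Further mesenchymal genes fell with Vim, Fn1 and Thbs1. Of 36 measured, 15 fell, 0 rose and 21 did not pass, with a median difference of -2.88, where 3.15% of all genes were called lower. All EpiX arrays lay below all BEGM arrays for 31 of them, against 14.5% of all genes. The largest falls were those of the proteoglycan Bgn (-9.80), the lysyl oxidase Loxl2 (-7.76), the adhesion molecule Ncam1 (-7.13), the actin-binding Tagln (-6.97), the secreted glycoprotein Fstl1 (-6.83) and the gelatinase Mmp2 (-5.62). In EpiX, Loxl2 was under the background median on all 3 arrays, Bgn on arrays 1 and 2, Ncam1 on array 2 and Mmp2 on array 1, so the sizes of these falls are not resolved at the low end and their order is not firm. Tagln was at 8.15, 9.52 and 9.73 on the EpiX arrays, against 15.19, 16.39 and 16.72 on the BEGM arrays, so that BEGM array 1 stood with its group. Cdh2, which encodes N-cadherin and was named after its values were seen, was at 3.93, 3.89 and 4.36 in EpiX and 4.40, 4.49 and 5.98 in BEGM, above the background median on BEGM array 3 only. The count of falls was 25 without BEGM array 1, and it dropped to 5 when EpiX array 2 was left out, 6 for EpiX array 1 and 7 for BEGM array 2.

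Of 19 measured genes on a list of TGF-beta ligands, receptors, Smads and related genes, 8 fell, 0 rose and 11 did not pass, with a median of -1.07. The related genes were Smurf1, Smurf2, Pmepa1, Ltbp1, Ltbp2 and Thbs2, of which Smurf1, Pmepa1 and Ltbp1 fell. The ligand gene Tgfb2 was at 9.40, 9.78 and 9.57 on the EpiX arrays, against 12.52, 13.08 and 12.26 on the BEGM arrays, and fell by 3.04 ± 0.23 (SE; adjusted p = 0.00224). Its arrays were close together within each medium, and BEGM array 1 was not low. The feedback gene Pmepa1 (-7.67), the activin subunit Inhba (-5.17), the latent TGF-beta binding protein Ltbp1 (-1.94), the receptor Acvr1 (-1.78) and the inhibitory Smad7 (-1.66) also fell. Pmepa1, at 5.84, 5.68 and 5.26 in EpiX and 11.83, 13.63 and 14.34 in BEGM, and Smad7 were under the background median on all 3 EpiX arrays, so the sizes of their falls are not resolved at the low end. Smad7, a direct target of the pathway, was at 5.07, 4.75 and 5.04 in EpiX and at 6.72, 6.44 and 6.67 in BEGM. The count of falls was 11 without BEGM array 1, it was 4 when EpiX array 2 or BEGM array 2 was left out and 5 for EpiX array 1, and 1 gene rose without BEGM array 3. Inhba is on the mesenchymal list too.

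Of 22 measured epithelial genes that Zeb and Snail factors repress, 1 fell, 0 rose and 21 did not pass, with a median of -0.15. Of all genes, 3.15% were called lower and 2.63% higher. The gene that fell was Pkp2, a desmosome plakophilin, at 11.29, 11.22 and 11.36 in EpiX and 12.95, 13.47 and 12.73 in BEGM (-1.76 ± 0.21, SE; adjusted p = 0.00828). Cdh1, their best known target and named here after its values were seen, was at 16.18, 16.24 and 16.29 in EpiX, against 17.08, 16.98 and 16.55 in BEGM. Its 3 EpiX arrays were all below the BEGM arrays, by -0.63 ± 0.17, which missed the threshold (adjusted p = 0.0870). The count of falls was 0 without EpiX array 2 and 2 without BEGM array 3, and 1 gene rose without BEGM array 1.

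Regulators that hold the epithelial state had a median difference of 1.02 over 15 measured genes, of which 2 rose, 0 fell and 13 did not pass. Tp63, the basal cell master factor, rose by 2.15 ± 0.20 (SE; adjusted p = 0.00431) and Klf5 by 1.54 ± 0.26 (adjusted p = 0.0215). Grhl2, a factor that represses Zeb1 in other epithelia and was named after its values were seen, was at 12.56, 12.05 and 12.16 in EpiX, against 11.63, 11.37 and 10.58 in BEGM (1.07 ± 0.29, adjusted p = 0.0863). Ovol1, another factor opposing EMT and likewise named afterwards, was at 8.12, 8.23 and 8.65 in EpiX, against 8.38, 6.42 and 6.11 in BEGM, so that BEGM array 1 lay among the EpiX arrays (adjusted p = 0.216). The count of rises was 9 without BEGM array 1 and 1 without EpiX array 1, EpiX array 2 or BEGM array 2. Of 11 measured basal cell markers, Tp63 among them, 4 rose and 2 fell, with Krt15 (4.12), Aqp3 (4.09), Bcam (3.11) and Tp63 higher and Pdpn (-2.96) and Lamb3 (-1.20) lower. The falls numbered 1 without EpiX array 1 or 2.

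Of 24 measured cofactors and stability regulators of the Snail, Zeb and Twist proteins, 3 rose, 3 fell and 18 did not pass, with a median of -0.08. The rises were those of the inhibitors of basic helix-loop-helix factors Id1 (2.22 ± 0.30, SE; adjusted p = 0.0115), Id3 (1.67 ± 0.35; adjusted p = 0.0424) and Id4 (1.48 ± 0.31; adjusted p = 0.0426). Id1 was at 13.91, 13.51 and 12.92 in EpiX, against 10.83, 11.56 and 11.30 in BEGM. The falls were those of Loxl2, which can stabilise Snai1 protein and is also on the mesenchymal list, of the Hippo kinase Lats2 (-1.89 ± 0.30; adjusted p = 0.0188) and of Btrc, a ubiquitin ligase subunit that marks Snai1 for degradation (-1.10 ± 0.23; adjusted p = 0.0410). The rises numbered 0 by limma without EpiX array 2, 1 without EpiX array 3, BEGM array 2 or BEGM array 3, and 2 when EpiX array 1 was left out. The falls numbered 1 without any single EpiX array. Protein levels were not measured.

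**Figure D4:**
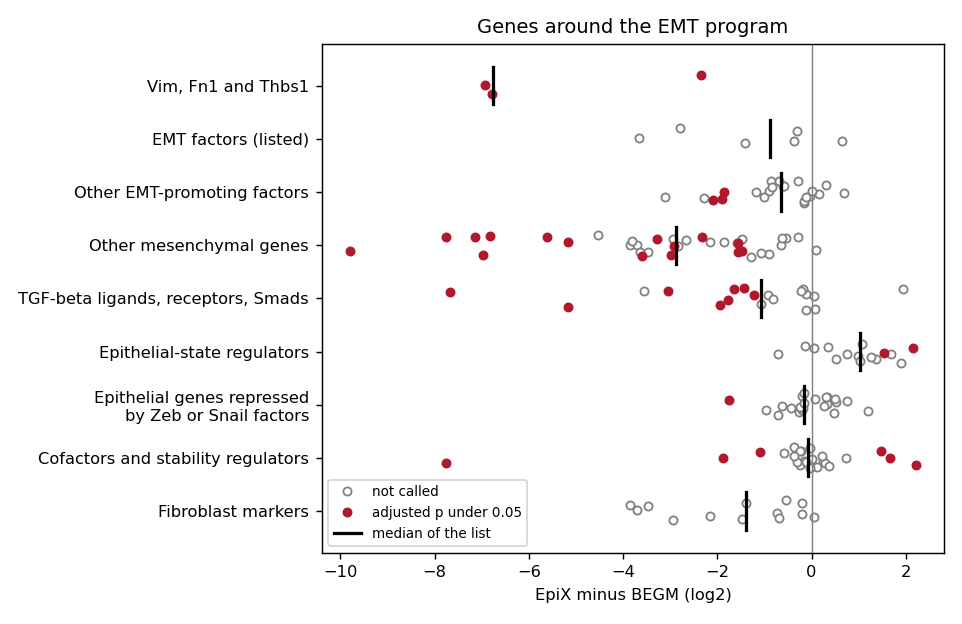
Difference of each measured gene (EpiX minus BEGM, log2, horizontal axis) in 9 gene lists, with filled points for genes at an adjusted p under 0.05, open points for the rest and a black bar for the median of each list; some genes are on more than 1 list, and vertical scatter within a list has no meaning. Mesenchymal genes lie to the left with a median of -2.88, epithelial-state regulators to the right with a median of 1.02, and the epithelial genes repressed by Zeb or Snail factors around 0 with a median of -0.15.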

How the data were processed

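The 6 arrays comprised 3 EpiX and 3 BEGM cultures. Signals of 24834 probe sets were used as deposited by the authors, and were taken as log2 values from their range. Neither the authors' normalization nor the log base is given in the sources used here, so folds assume base 2. Per the submitters' processing notes, the Transcriptome Analysis Console was used, in a role and version left unstated.

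The platform annotation, which can be old, gave 15049 probe sets 1 gene symbol and 0 several. The brightest probe set per gene was kept, leaving 15037 genes, all found in a RefSeq gene table by gene ID with the same symbol. A linear model of medium alone was fitted to all genes (limma 3.58.1, statmod 1.5.0, R 4.3.3; lmFit and eBayes) and checked on simulated data. Calls are Benjamini-Hochberg adjusted p-values under 0.05 over the 15037 genes, 2-sided. No dim probe sets were filtered out, and the number of arrays limits precision. The array numbers follow the labels' source names (the titles number some arrays otherwise but put the same arrays together). The labels do not say which pooled line an array came from, so p-values measure the spread between these cultures.

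Members, gene lists and tests were chosen with earlier results of these data known. The rule for named genes took all members with the value on every array, up to 6 called genes of each list by size of difference (or the 2 largest differences where none was called), and the 8 genes nearest to the mean of Vim, Fn1 and Thbs1, passing over unnamed loci. Alternatives were array weights, median centring, quantile normalization, the array number as a fixed or random block, a variance both trended and robust, a mean over probe sets, a filter removing the dimmest 25% of genes, and leaving out arrays. Plots were drawn with matplotlib 3.10.9.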

Additional observations from a re-analysis of the deposited data

How the results depend on the processing

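The 9 measured genes kept the sign of their difference in all 17 alternative fits. Ranges over these fits were -8.38 to -5.88 for Vim (12 fits called), -8.08 to -5.96 for Thbs1 (12), -2.83 to -1.87 for Fn1 (11), -3.69 to -1.97 for Zeb2 (4), -5.14 to -2.25 for Prrx1 (3), -2.05 to -0.82 for Snai1 (3), 0.32 to 0.90 for Snai2 (0), -0.53 to -0.03 for Twist1 (0) and -0.55 to -0.17 for Twist2 (0). With array weights 6 of the genes were called lower (Zeb2, Prrx1 and Snai1 besides the targets), and 1031 of all genes were lower and 956 higher. Leaving out 1 array, or both arrays of a number, gave 0 to 6 of the genes lower, and 0 to 1101 lower and 0 to 988 higher genes in the table, with fewer samples to test. The 0 by limma for the whole table came without both arrays of number 2, where 1582 genes, 3 of the 9 among them, had an unadjusted p under 0.05. Of the 9 genes, 0 were called by limma also without EpiX array 1, EpiX array 2, BEGM array 2 or BEGM array 3. In these fits 4 to 7 of the 9 had an unadjusted p under 0.05. Median centring shifted the median difference of all genes to 0.13.

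Whether the array numbers pair the samples was not settled. The titles put the same arrays together as the source names do. They give the EpiX and BEGM arrays numbered 1 a shared number, and those numbered 2 another. The arrays numbered 3 have matching titles without a number. No title names a line. Deviations from the group means correlated at 0.32, -0.01 and 0.32 for numbers 1, 2 and 3, and at -0.37 to 0.16 for unlike numbers. EpiX array 2 correlated better with BEGM array 1 (0.16) than with BEGM array 2. With 3 arrays per medium, such values cannot decide it. With the replicate block, 660 genes were lower and 592 higher, and 4 of the 9 were called lower, Zeb2 being added (adjusted p = 0.0407). The order of the factors by likeness did not change with median centring. Scaling to range moved Twist2 from rank 4 to 1, Prrx1 from 1 to 3, Snai1 from 3 to 5 and Twist1 from 5 to 4. Several factors were dim: Twist1 and Twist2 lay under the background median on all 6 arrays, Snai1 on 5, and Zeb2 and Prrx1 on 4.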
